A study of Lens culinaris with 18 samples.

Results

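A set of 150 lentil transcripts stood lower in leaf under polyethylene glycol (PEG) at both sampling times. In root, the same transcripts stayed within a 2-fold window by group means at the deposited scaling. The set was taken from 124151 assembled transcripts by a rule on the deposited values, with 1 added to each value before any ratio. A transcript needed a mean of at least 5 over the 8 leaf libraries and at least 2 over the 8 root libraries. At 24 h and again at 96 h, the higher leaf PEG library had to lie at or below 0.5 times the lower leaf control library. The ratio of mean root PEG to mean root control values had to lie between 0.5 and 2 at both times. Of 12046 transcripts that met the level minimums, 10.1% met the leaf criterion at 24 h, 31.8% met it at 96 h and 6.33% met it at both. These 762 transcripts became 312 once the root limits were applied. They were ranked by the smaller of their leaf falls, and the first 150 were kept. The transcripts were thus selected on their leaf PEG and control values and on their root ratios, and the leaf falls and the narrow root window are given below as descriptions without a test.

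Water deficit in leaves is known to close stomata, to slow carbon fixation and cell expansion, and to shift transcript levels through abscisic acid and other signals. Roots meet the lower water potential first and often keep growing longer than leaves. PEG of high molecular weight lowers the water potential of a nutrient solution and hardly enters the tissue, so it is used to impose such a deficit on whole seedlings. The deposited file pairs its identifiers with no gene names, so no transcript below has a stated function, and the labelled tissues could not be checked against marker genes.

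The plants were wild-type Lens culinaris, cultivar Sultan, a lentil that the study calls drought-sensitive. Seedlings of 7 days were moved into aerated Hoagland solution, and the stressed ones had 15% PEG 6000 in it. Leaf and root were each sampled under PEG at 24 h, as 24 h controls, under PEG at 96 h and as 96 h controls, which gave 8 groups of 2 biological replicates. The protocol states 5 days of PEG for the stressed plants and places the leaf and root samples on days 1 and 4, so the labelled 24 h and 96 h are taken as hours into the treatment. Both kinds of plants shared the nutrient solution, a photoperiod of 16 h light and 8 h dark, and 25 °C days with 18 °C nights. Each library was made from polyadenylated RNA of a bulk tissue, so fewer cells of a type and less RNA per cell cannot be told apart. Whether each replicate pooled several plants is not given in the sources used here.

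Values are TMM-scaled TPM, a level per transcript length and per library that keeps no read counts, so read depth is unknown and the number of libraries limits the precision. A single assembly component, which the rule leaves out, held 81.1% and 76.3% of the summed values of the leaf 96 h PEG libraries and 92.4% of those of root 24 h control replicate 2. Its share was 23.3% for the other root 24 h control and no more than 0.0991% elsewhere. These 3 dominated libraries also list 13, 11 and 10 of the 150 transcripts at 0, while the other 13 libraries list at most 1. Results that rest on them are given with other scalings and, where possible, without them. Whether this component had a part in the results was not tested.

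The 150 transcripts ranged widely in leaf level. Their mean over the 4 leaf control libraries ran from 8.67 to 4271, with a median of 43.8, against a median of 16.9 over all 12046 transcripts at the level minimums. By library, the median of the 150 was 10.7 and 10.4 in leaf under PEG at 24 h, against 41.8 and 42.0 in the 24 h controls. It was 5.00 and 4.99 in leaf under PEG at 96 h, against 50.5 and 45.5 in the 96 h controls. In root it lay between 6.60 and 10.3 in all 8 libraries, below every leaf library at 24 h and every 96 h leaf control, and above both leaf PEG libraries at 96 h. The lowest of these root medians was in root under PEG at 24 h.

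**Figure D1:**
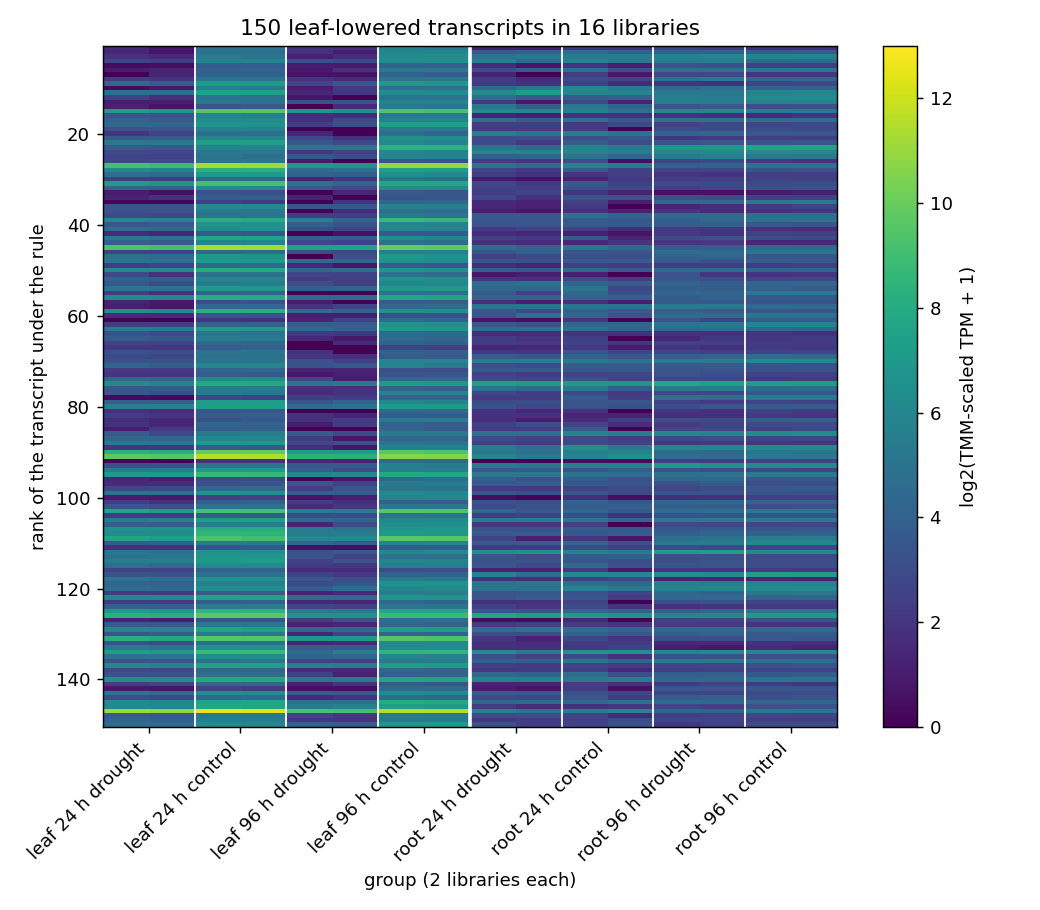
Level of each of the 150 transcripts (rows, by rank under the rule) in the 16 libraries (columns, 2 per group), as log2(TMM-scaled TPM + 1), where drought names the PEG groups. The leaf control columns are brighter than the leaf PEG columns at both times, which the rule requires, and the root columns differ less between PEG and control.

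Changes are given as differences of log2(value + 1), a scale on which those of low transcripts come out too small. The change under PEG in leaf at 24 h ran from −4.80 to −1.42, with a median of −1.86. At 96 h it ran from −5.19 to −1.58, with a median of −2.68. Over all 28176 transcripts tested in leaf the median change was −0.02 at 24 h and −0.59 at 96 h. Set against these shifts, the medians of the 150 were −1.84 at 24 h and −2.10 at 96 h. With median-ratio size factors the median change of the 150 was −1.93 at 24 h and −2.26 at 96 h, and 139 of the 150 still met the leaf criterion at both times. With the dominant component removed and libraries set to the same total, the medians were −1.64 and −3.25, and all 150 met it. With libraries set to the same total and the component kept, which by itself lowers every other transcript in the leaf 96 h PEG libraries, they were −1.66 and −4.70. All 150 were lower in PEG than in control at both times under each of these scalings. The rule had fixed this direction in advance, since its falls of at least 2.55 times were larger than the scalings could undo.

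The transcripts ranked first show the largest falls that every pair of libraries shared. TRINITY_DN48603_c3_g1, at rank 1, had values in leaf of 1.77 and 0.805 under PEG at 24 h, against 28.1 and 33.6 in the 24 h controls. It had 2.73 and 2.48 under PEG at 96 h, against 51.4 and 40.0 in the 96 h controls. The lower control library was 10.5 and 11.0 times the higher PEG library at the 2 times, on the rule's scale, so the leaf groups lay far apart. In root the same transcript was low throughout, at 1.22 and 0.976 under PEG at 24 h, against 3.07 and 2.98 in the 24 h controls. Root values of 4.73 and 4.00 followed under PEG at 96 h, against 2.31 and 2.34 in the 96 h controls, and the groups again did not overlap, with PEG lower than control at 24 h and higher than control at 96 h. TRINITY_DN45358_c0_g1, at rank 2, had 1.60 and 0.620 under PEG at 24 h, against 27.5 and 25.4 in the 24 h controls in leaf. It had 2.59 and 1.07 under PEG at 96 h, against 60.0 and 62.4 in the 96 h controls. Its leaf controls were higher at 96 h than at 24 h, and its leaf PEG libraries stayed below 3 at both times. In root its values were 11.6 and 14.0 under PEG at 24 h, against 20.5 and 14.8 in the 24 h controls, and 15.2 and 14.9 under PEG at 96 h, against 13.2 and 12.2 in the 96 h controls. Root PEG levels of this transcript thus stood above its leaf PEG levels at both times, whereas root control levels stood below leaf control levels.

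**Figure D2:**
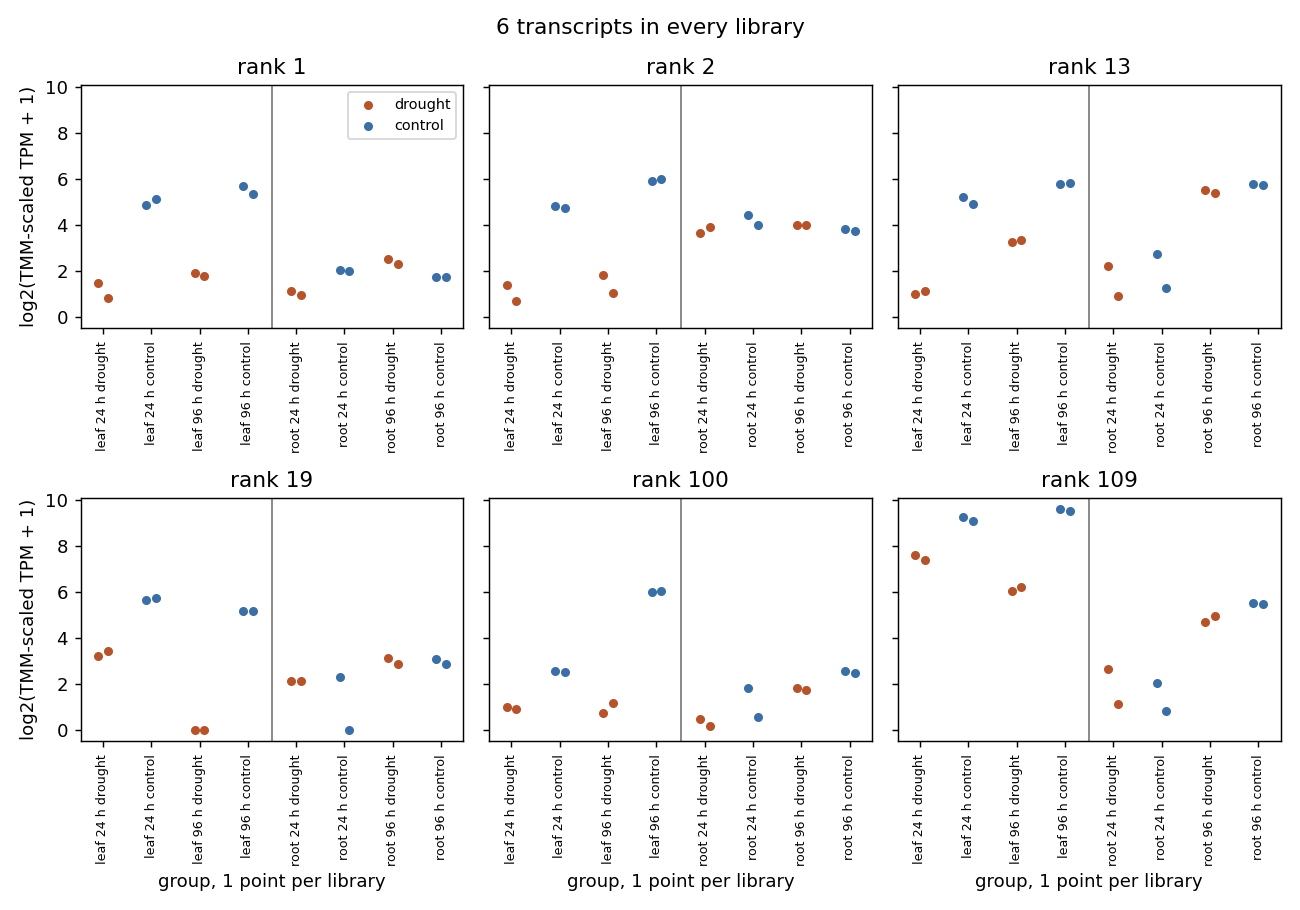
Values of 6 transcripts in every library as log2(TMM-scaled TPM + 1), 1 point per library (drought: PEG), leaf to the left and root to the right of the grey line in each panel. Ranks 1 and 2 stand lowest in the leaf PEG groups among the leaf groups, rank 19 is listed at 0 in both leaf 96 h PEG libraries, and rank 109 is far higher in leaf than in root at 24 h.

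Ranks 3 to 10 showed different patterns in root beside their leaf falls. Rank 3 had 2.67 and 2.00 under PEG at 24 h, against 38.2 and 32.7 in the 24 h controls in leaf, and 1.26 and 2.28 under PEG at 96 h, against 74.1 and 82.9 in the 96 h controls. Its root values were high in all groups, 27.5 and 41.8 under PEG at 24 h, against 38.3 and 43.1 in the 24 h controls, and 50.8 and 56.3 under PEG at 96 h, against 59.6 and 58.2 in the 96 h controls. Under PEG this transcript was thus plentiful in root and scarce in leaf. Rank 4 had 5.46 and 4.08 under PEG at 24 h, against 56.4 and 55.4 in the 24 h controls in leaf, and 7.98 and 6.43 under PEG at 96 h, against 78.2 and 87.5 in the 96 h controls. In root it had 51.2 and 20.0 under PEG at 24 h, against 52.9 and 35.5 in the 24 h controls, and 44.8 and 42.4 under PEG at 96 h, against 21.3 and 22.2 in the 96 h controls. Root groups overlapped at 24 h, while at 96 h both root PEG libraries lay above both controls, close to the upper limit of the rule. Rank 5 had 0.330 and 0.419 under PEG at 24 h, against 13.3 and 13.6 in the 24 h controls in leaf, and 1.05 and 0.938 under PEG at 96 h, against 16.9 and 15.1 in the 96 h controls. In root it had 2.28 and 0.780 under PEG at 24 h, against 2.83 and 1.17 in the 24 h controls, and 9.94 and 8.62 under PEG at 96 h, against 4.72 and 4.46 in the 96 h controls. It was therefore lower under PEG in leaf and higher under PEG in root at 96 h, a pair of directions also seen at ranks 1, 2, 4, 7, 8 and 10.

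Rank 6 had 0.952 and 1.37 under PEG at 24 h, against 15.2 and 16.5 in the 24 h controls in leaf, and 0.910 and 2.61 under PEG at 96 h, against 38.1 and 34.3 in the 96 h controls. In root it had 7.12 and 12.2 under PEG at 24 h, against 27.7 and 7.29 in the 24 h controls, and 28.6 and 26.8 under PEG at 96 h, against 35.6 and 35.2 in the 96 h controls, where the 24 h control libraries were far apart and enclosed 1 of the PEG libraries. Rank 7 had 0.0450 and 1.50 under PEG at 24 h, against 15.2 and 15.5 in the 24 h controls in leaf, and 0.560 and 0.536 under PEG at 96 h, against 15.2 and 12.7 in the 96 h controls. Its root values were 1.52 and 0.0710 under PEG at 24 h, against 4.23 and 0.875 in the 24 h controls, and 6.47 and 6.69 under PEG at 96 h, against 3.12 and 3.23 in the 96 h controls, overlapping at 24 h and apart at 96 h. Rank 8 had 4.00 and 2.90 under PEG at 24 h, against 32.7 and 29.6 in the 24 h controls in leaf, and 2.73 and 1.88 under PEG at 96 h, against 33.3 and 34.4 in the 96 h controls. Its root values were 4.01 and 1.98 under PEG at 24 h, against 6.80 and 5.95 in the 24 h controls, and 32.4 and 36.1 under PEG at 96 h, against 18.7 and 19.7 in the 96 h controls, so PEG stood below control at 24 h and above it at 96 h with no overlap at either time. Rank 9, with 21.5 and 13.8 under PEG at 24 h, against 142 and 129 in the 24 h controls, and 5.95 and 10.5 under PEG at 96 h, against 128 and 113 in the 96 h controls, was the most abundant of these 10 in leaf and low in root. Its root values were 3.41 and 2.55 under PEG at 24 h, against 4.61 and 1.98 in the 24 h controls, and 2.91 and 2.80 under PEG at 96 h, against 5.38 and 5.72 in the 96 h controls, which overlapped at 24 h and did not at 96 h. Rank 10 had 0.300 and 0.878 under PEG at 24 h, against 44.4 and 40.7 in the 24 h controls in leaf, and 0.980 and 3.68 under PEG at 96 h, against 25.9 and 28.2 in the 96 h controls. Its root values were 21.3 and 36.4 under PEG at 24 h, against 64.3 and 41.9 in the 24 h controls, and 19.2 and 25.7 under PEG at 96 h, against 16.1 and 16.8 in the 96 h controls, and at 24 h this transcript was as high in root controls as in leaf controls.

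At the end of the list the values changed little from rank to rank. Rank 150, the last inside, had a smaller leaf fall of 2.554 times and rank 151, the first outside, one of 2.552 times. Rank 150 had 23.6 and 20.6 under PEG at 24 h, against 76.3 and 61.9 in the 24 h controls, and 14.7 and 12.5 under PEG at 96 h, against 113 and 124 in the 96 h controls. Rank 151 had 113 and 104 under PEG at 24 h, against 426 and 395 in the 24 h controls, and 38.3 and 51.2 under PEG at 96 h, against 156 and 132 in the 96 h controls. A further 162 transcripts met every criterion past the end of the list. Of the 762 transcripts that met the leaf criteria, 450 lay outside the root limits. In root 245 of the 762 lay below the lower limit at 24 h and 190 at 96 h, while 32 and 116 lay above the upper limit.

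The 96 h fall was the larger of the leaf falls in 130 of the 150 transcripts, against 69.6% of all transcripts at the level minimums. That count was 93 with median-ratio size factors, 146 with totals set equal without the dominant component and 149 with totals set equal and the component kept. Taken relative to the median change of all transcripts at each time, it was 88 for the values as deposited, 81 under median-ratio scaling, 104 with totals set equal without the component and 120 with totals set equal and the component kept. The size of this majority thus moved with the scaling. Rank 100 showed the widest gap in favour of 96 h. It had 0.989 and 0.894 under PEG at 24 h, against 4.98 and 4.79 in the 24 h controls, and 0.700 and 1.27 under PEG at 96 h, against 62.3 and 65.6 in the 96 h controls, with log2 changes of −1.60 and −5.05. The PEG levels of this transcript were alike at the 2 times, and it was the control level that differed. Rank 10 showed the widest gap in favour of 24 h, with log2 changes of −4.80 at 24 h and −3.20 at 96 h. Across the 150, the log2 changes at the 2 times had a Pearson correlation of 0.25 and a Spearman correlation of 0.25, a description over transcripts that share the 8 leaf libraries and were truncated by the rule.

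**Figure D3:**
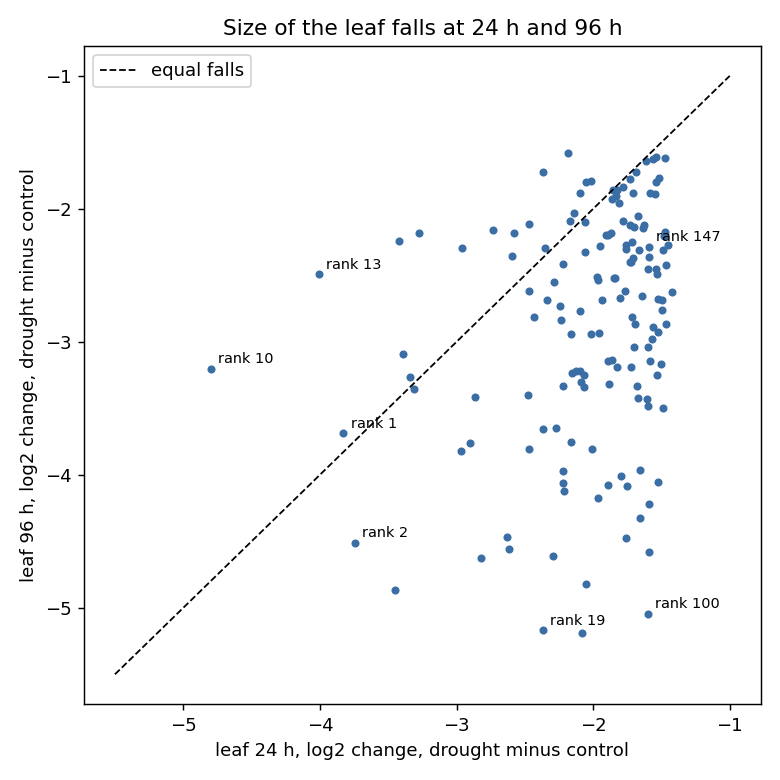
Log2 change under PEG in leaf at 24 h (x axis) and at 96 h (y axis), 1 point for each of the 150 transcripts, with the line of equal falls dashed. Points below the line, 130 of 150 at the deposited scaling, have the larger fall at 96 h.

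A few transcripts carried much of the summed level. The 150 together summed to 8636 and 7435 in leaf under PEG at 24 h, against 29830 and 28062 in the 24 h controls. They summed to 3083 and 3003 under PEG at 96 h, against 20843 and 19581 in the 96 h controls. Outside the dominant component they were 1.15% and 0.923% of the total under PEG at 24 h, against 3.16% and 3.31% in the controls. At 96 h they were 0.233% and 0.189% under PEG, against 2.62% and 2.47% in the controls. The 5 most abundant transcripts made up 49.6% of the sum of means in the leaf 24 h controls and 39.6% in the 96 h controls. Rank 147, the most abundant in leaf, had 2086 and 1680.2 under PEG at 24 h, against 5934 and 5360.3 in the 24 h controls, and 607 and 581 under PEG at 96 h, against 2929 and 2862 in the 96 h controls. Its root values were 50.0 and 32.6 under PEG at 24 h, against 47.1 and 54.7 in the 24 h controls, and 17.8 and 17.7 under PEG at 96 h, against 37.1 and 35.0 in the 96 h controls. Rank 60 was the least abundant, with 2.02 and 2.04 under PEG at 24 h, against 9.35 and 9.49 in the 24 h controls, and 1.12 and 1.07 under PEG at 96 h, against 7.77 and 8.08 in the 96 h controls. In root it was mostly higher than in leaf, at 8.42 and 24.1 under PEG at 24 h, against 19.6 and 8.92 in the 24 h controls, and 23.1 and 24.2 under PEG at 96 h, against 30.7 and 28.8 in the 96 h controls. In all, 41 of the 150 had a mean of at least 100 in the leaf controls, against 7.7% of transcripts at the level minimums.

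Some transcripts were listed at 0 under PEG. Of the 150, 20 were at 0 in at least 1 leaf PEG library, against 8.63% of transcripts at the level minimums, and 5 were at 0 in both leaf 96 h PEG libraries, against 2.35%. Rank 19 was among these 5, with 8.21 and 9.92 under PEG at 24 h, against 49.4 and 52.3 in the 24 h controls, and 0 and 0 under PEG at 96 h, against 34.6 and 35.3 in the 96 h controls. With depth unknown, a listed 0 need not be an absence.

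In root, where the rule kept the change within 2-fold, the log2 change under PEG lay between −0.98 and 0.98 at 24 h and between −0.98 and 0.97 at 96 h. The median was −0.20 at 24 h and −0.03 at 96 h, beside 0.25 and −0.07 over transcripts at the level minimums. By mean value, 45 of the 150 stood higher under PEG at 24 h, against 59.7% of transcripts at the level minimums, and 74 at 96 h, against 46.2%. The rule used these contrasts, so nothing is read from these counts. The 24 h median turned with the controls, being −0.43 without root 24 h control replicate 2 and 0.04 without replicate 1, and it was 0.99 with totals set equal and the component kept. At 96 h the median was 0.10 with totals set equal without the dominant component. Over the 150, the median log2 distance between replicates was 0.57 among root 24 h controls, the widest of the 8 groups, and 0.06 among root 96 h controls, the narrowest.

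By level, most of the 150 were higher in leaf than in root in unstressed plants. The rule does not compare the tissues, but it asks for leaf controls well above leaf PEG values, which favours transcripts with high leaf controls. The counts and differences between the tissues that follow use those same leaf control libraries and are given as a description, with nothing read from them as a test. In the 24 h controls 118 of 150 were higher in leaf and 4 lower (limma on all 16 libraries, adjusted p under 0.05), where 18.5% of all 41303 transcripts tested were higher and 12.8% lower. The median log2 difference was 2.53, against 0.00 over all transcripts tested and 0.41 over those at the level minimums. In the 96 h controls 107 were higher in leaf and 7 lower, where 14.1% of all transcripts were higher and 25.9% lower, and the median difference was 2.13. Among transcripts with a value of at least 5 in 2 or more libraries, 6219 of 20921 were higher and 3932 lower at 24 h. At 96 h 4321 of them were higher and 4969 lower. In these fits 118 of the 150 were higher and 4 lower at 24 h, and 109 and 7 at 96 h. With totals set equal without the dominant component the split at 24 h was 100 higher and 19 lower, and at 96 h 98 and 17. Without the 3 dominated libraries it was 118 and 11 at 24 h, and 122 and 12 at 96 h. In all, 101 of the 150 were higher in leaf in both sets of controls, where 9.86% of all transcripts tested were, and 2 were lower in both, where 7.06% were.

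TRINITY_DN41607_c0_g1, at rank 109, showed the largest excess of leaf at 24 h. It had 609 and 534 in the leaf 24 h controls and 3.19 and 0.758 in the root 24 h controls (log2 difference 7.72, SE 0.47). The leaf libraries lay above the root libraries with no overlap. At 96 h rank 147 showed the largest excess, with 2929 and 2862 in leaf controls and 37.1 and 35.0 in root controls (log2 difference 6.29, SE 0.18). In the other direction, rank 89 had 11.7 and 11.9 in the leaf 24 h controls and 85.1 and 37.2 in the root 24 h controls (log2 difference −2.16, SE 0.39), a call that was lost with totals set equal and the component kept. Rank 117 had 16.5 and 16.8 in the leaf 96 h controls and 157 and 154 in the root 96 h controls (log2 difference −3.15, SE 0.27). A small minority of the set was thus more abundant in root. That these also stood lower under PEG in leaf was required by the rule.

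Under PEG the excess of leaf over root was smaller at 24 h and turned at 96 h, a shift that holds the leaf falls used by the rule. The median log2 difference between leaf and root was 0.65 under PEG at 24 h, against 2.53 in the 24 h controls, and −0.88 under PEG at 96 h, against 2.13 in the 96 h controls. Over transcripts at the level minimums it was 0.16 against 0.41 at 24 h, and −0.54 against 0.05 at 96 h. The smaller excess at 24 h and the turn at 96 h were thus shared by all of these. Both leaf 96 h PEG libraries are dominated ones, and these differences are given at the deposited scaling only. By mean value 97 of the 150 were higher in leaf than in root under PEG at 24 h, against 133 in the 24 h controls, and 50 under PEG at 96 h, against 131 in the 96 h controls. The same counts over transcripts at the level minimums were 55.8%, 65%, 37.6% and 52.3%. For 25 of the 150, leaf exceeded root in both sets of controls and stood below root under PEG at both times, a pattern of 6.71% of transcripts at the level minimums. Rank 2, described above, is 1 of these 25. Across the 150, leaf and root control levels on the log2 scale had a Pearson r of 0.45 at 24 h and 0.42 at 96 h, as a description over transcripts that share the same libraries.

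**Figure D4:**
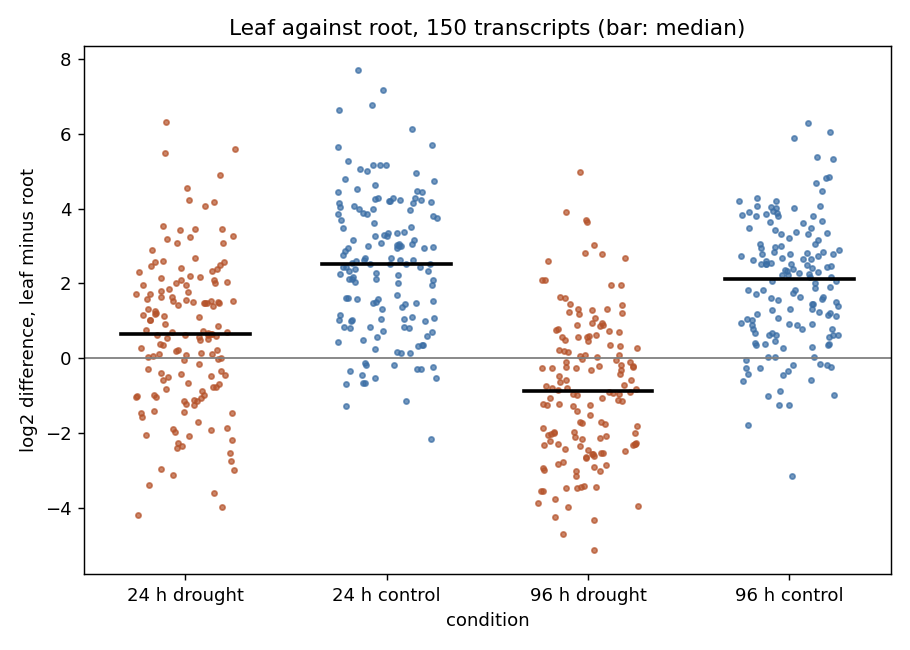
Log2 difference between leaf and root for each of the 150 transcripts (points) under PEG (drought) and in controls at each time, with the median as a bar. The medians are 0.65 under PEG and 2.53 in controls at 24 h, and −0.88 under PEG and 2.13 in controls at 96 h. Over transcripts at the level minimums, not drawn, they are 0.16 and 0.41 at 24 h, and −0.54 and 0.05 at 96 h.

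The levels of unstressed leaf also changed between the times, in both directions. Between the 96 h and the 24 h controls, 28 of the 150 rose and 47 fell (limma on the 8 leaf libraries, adjusted p under 0.05), where 12.8% of all 28176 transcripts tested rose and 13.9% fell. The median change was −0.22, against 0.00 over all transcripts tested. Transcripts tested include many of lower level than the 150. Among those with a value of at least 5 in 2 or more libraries, 2611 of 16599 rose and 3049 fell. In that fit 33 of the 150 rose and 51 fell. The rule did not set the 96 h against the 24 h controls, although it used the libraries of both. The calls and the p-values of the extreme transcripts below are therefore a description of the chosen set. Rank 100 rose most, to 62.3 and 65.6 in the 96 h controls, against 4.98 and 4.79 in the 24 h controls (log2 change 3.46, SE 0.19, limma adjusted p = 0.000268). Rank 88 fell most, to 30.4 and 27.5 in the 96 h controls, against 129 and 123 in the 24 h controls (log2 change −2.08, SE 0.13, limma adjusted p = 0.000386). The replicates were close in both cases and the groups did not overlap. The split was 36 higher and 36 lower with totals set equal without the dominant component. There 4570 of all 25923 transcripts tested rose and 3149 fell. With totals set equal and the component kept it was 47 and 46, where 6775 of all 25818 rose and 4537 fell. The split over all transcripts thus also moved toward rises. The component held at most 0.0236% of these control libraries. The number of calls was 75, and 33 to 36 without any 1 of the 4 leaf control libraries. It was 108 without both leaf 96 h PEG libraries, of which 45 were rises.

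In stressed leaf, levels were mostly lower still at the later time. Between PEG at 96 h and PEG at 24 h, 100 of the 150 fell and 14 rose (limma on the 8 leaf libraries, adjusted p under 0.05), where 36.5% of all transcripts tested fell and 14.7% rose, 51.1% in either direction. The median change was −1.03, against −0.46 over all transcripts tested. Among transcripts with a value of at least 5 in 2 or more libraries, 7740 of 16599 fell and 2900 rose, with a median of −0.64. In that fit 102 of the 150 fell and 16 rose. The rule did not set the 96 h against the 24 h PEG libraries, although it used the libraries of both. These calls, and the p-values of the extreme transcripts picked from them below, are therefore given as a description of the chosen set. Both 96 h libraries of this contrast are dominated ones. The split was 67 falls and 19 rises with median-ratio size factors, where the median of all transcripts was −0.09 and that of the 150 −0.50. It was 117 and 8 with totals set equal without the dominant component, where 14864 of all 25923 transcripts tested fell and 2081 rose. The median there was −0.95 over all and −1.70 over the 150. It was 140 and 0 with totals set equal and the component kept, where 20732 of all 25818 fell and 271 rose. There the medians were −1.89 over all and −2.94 over the 150, so much of these falls was shared by all transcripts. Rank 19 fell most, being listed at 0 in both libraries under PEG at 96 h, against 8.21 and 9.92 under PEG at 24 h (limma adjusted p = 0.000135). TRINITY_DN42064_c0_g1, at rank 13, rose most, to 8.68 and 9.11 under PEG at 96 h, against 0.997 and 1.18 under PEG at 24 h (log2 change 2.25, SE 0.15, limma adjusted p = 0.000225). Its change was −0.05 with totals set equal and the component kept (limma adjusted p = 0.709). Its controls stood at 53.2 and 56.2 at 96 h and at 36.6 and 28.9 at 24 h.

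**Figure D5:**
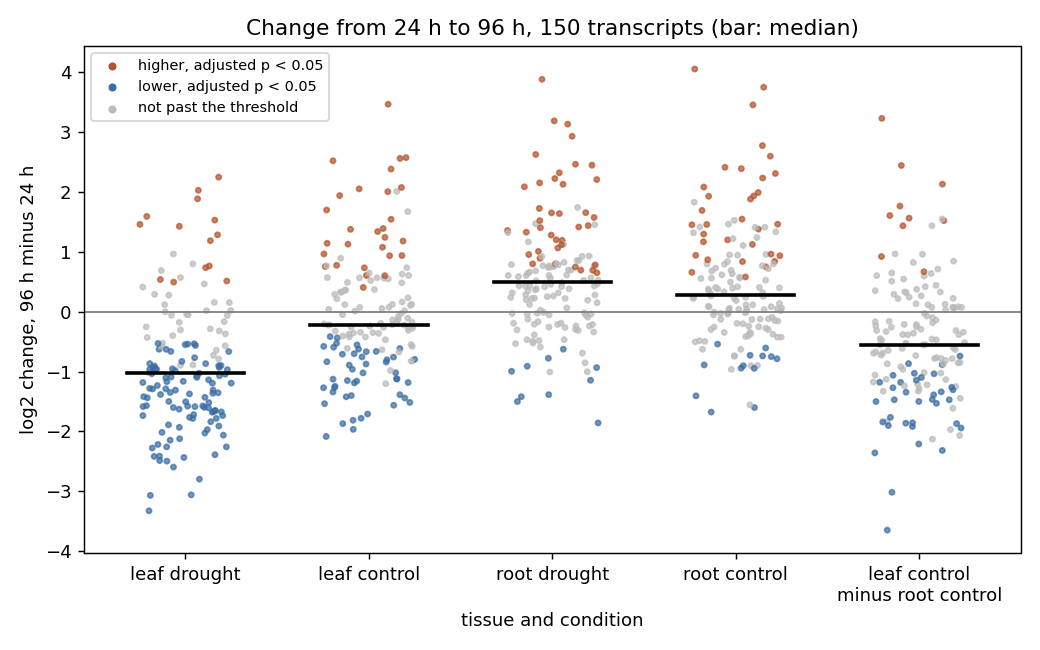
Log2 change between 96 h and 24 h for each of the 150 transcripts (points) in leaf and root, under PEG and in controls, and the leaf control change minus the root control change at the right, with medians as bars and calls coloured. In leaf under PEG 100 points are called lower, and in root more points are called higher than lower in both conditions.

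In root, more of the 150 were called higher than lower between the times. Between the 96 h and the 24 h root controls, 33 of the 150 rose and 13 fell (limma on the 8 root libraries, adjusted p under 0.05), where 28.9% of all 34082 transcripts tested rose and 8.05% fell. The rises were 22% of the 150 and the falls 8.67%, together 46 calls where 36.9% of all transcripts were called in either direction. The lean toward rises in the controls was thus no stronger in the 150 than over all transcripts. With totals set equal without the dominant component the 150 had 26 rises and 26 falls. There 10125 of all 37918 transcripts rose and 4444 fell, so the lean remained over all and not in the 150. Under PEG, 39 rose and 10 fell between 96 h and 24 h, where 16.6% of all transcripts rose and 10.3% fell, with a median change of 0.50 against 0.12 over all. Among transcripts with a value of at least 5 in 2 or more root libraries, 3958 of 17121 rose and 2880 fell under PEG. Of the 122 members in that fit, 36 rose and 11 fell. TRINITY_DN41607_c0_g1 rose most between the controls, to 44.4 and 43.7 in the 96 h controls, against 3.19 and 0.758 in the 24 h controls (log2 change 4.05, SE 0.61, limma adjusted p = 0.00365). Rank 20 fell most, to 11.1 and 10.7 in the 96 h controls, against 43.8 and 31.3 in the 24 h controls (log2 change −1.68, SE 0.24, limma adjusted p = 0.00314). Neither call was made without root 96 h control replicate 1 or 2 (limma adjusted p 0.0508 to 0.0575). Under PEG TRINITY_DN42064_c0_g1 rose most, to 44.5 and 40.7 under PEG at 96 h, against 3.67 and 0.869 under PEG at 24 h (log2 change 3.88, SE 0.60, limma adjusted p = 0.00785). It stood at 53.6 and 52.6 in the root 96 h controls and 5.75 and 1.40 in the root 24 h controls, so it was higher at the later time in both conditions and both tissues. Rank 33 fell most under PEG, to 0.576 and 0.573 at 96 h, against 4.15 and 5.33 at 24 h (log2 change −1.86, SE 0.27, limma adjusted p = 0.00645). Without root 96 h PEG replicate 1 or 2, neither of these last calls was made (limma adjusted p 0.0527 to 0.0649).

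The root counts rested on single libraries. The control contrast made 46 calls, and 6 and 7 without root 96 h control replicate 1 and 2, all of them rises. It made 91 without root 24 h control replicate 1, and the split was 26 rises and 26 falls with totals set equal without the dominant component, 32 and 20 under median-ratio scaling, and 17 and 0 with totals set equal and the component kept. Without root 24 h control replicate 2 it made 64, with 36 rises and 28 falls. The PEG contrast made 49 calls and 8 and 9 without root 96 h PEG replicate 1 and 2, 27 and 20 without root 24 h PEG replicate 1 and 2, 31 without either root 96 h control, and 87 without either root 24 h control. Rises outnumbered falls in each of these PEG fits, and they did so over all transcripts in the same fits. The same held under each scaling, for the 150 and for all transcripts. In the 150, totals set equal with the component kept gave 3 rises and 0 falls. Counts over all transcripts also moved with the library left out, so nothing particular to the 150 is read from these counts.

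At the deposited scaling, the change between the control times differed between the tissues about as often in the 150 as over all transcripts. The leaf change was lower than the root change for 35 of the 150 and higher for 10 (limma interaction on 16 libraries, adjusted p under 0.05), 23.3% and 6.67%, where 21.1% of all 41303 transcripts were lower and 5.52% higher. TRINITY_DN41607_c0_g1 had the most negative difference (log2 change −3.65, SE 0.66, limma adjusted p = 0.00191), with leaf controls of 774 and 737 at 96 h and 609 and 534 at 24 h beside the root values above. Rank 14 had the most positive one (log2 change 3.23, SE 0.78, limma adjusted p = 0.0109). It had 42.0 and 33.1 in the leaf 96 h controls and 10.3 and 11.8 in the leaf 24 h controls, and 7.96 and 8.30 in the root 96 h controls and 37.1 and 17.9 in the root 24 h controls. The call for rank 14 was lost with 4 of the alternatives (limma adjusted p 0.053 to 0.322). The split of the 150 turned with the scaling. With totals set equal without the dominant component it was 19 lower and 23 higher. There 8820 of all 43460 transcripts were lower and 4087 higher, so the split over all did not turn. Median-ratio scaling gave 31 and 13, where 7586 of all 39676 were lower and 2576 higher. With totals set equal and the component kept it was 9 and 0, where 10819 of all 45064 were lower and 947 higher. The 45 calls were 79 without root 24 h control replicate 1, 22 and 18 without root 96 h control replicate 1 and 2, and 74 without the 3 dominated libraries, of which 47 were lower.

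The 150 transcripts came from 150 separate assembly components, the units within which the assembler's identifiers group related sequences. At the broader level of read clusters they came from 147, of which 3 held 2 of the transcripts each. The components of 72 of the 150 also held other transcripts, 145 in all, of which 24 met the level minimums. Of these 24, 11 were lower under PEG in leaf at both times and 3 at least 2-fold lower on the log2 scale at both, where 8.93% of all transcripts at the level minimums were. Their median log2 change in leaf was 0.01 at 24 h and −1.41 at 96 h. The rule had kept these 24 out of the set, so the values describe them only. No sequence of these transcripts was used here.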

How the data were processed

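Polyadenylated RNA of leaf and root was sequenced as paired reads from strand-marked libraries, per the labels' protocols. Per the submitters' processing notes, which give neither role nor order, the tools included RSEM, edgeR, FastQC 0.11.5 and Trimmomatic 0.35. As deposited, each transcript has a signal value, TPM times 1 TMM factor per library, as the file's name and values show. The form of the identifiers is that of Trinity. Its version, the filters and the aligner are not given in the sources used. Stem samples, 2 of the 18 in the series, were not analysed here.

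Contrasts that the rule did not use, which share libraries with it, were tested with limma 3.58.1 in R 4.3.3 on log2(value + 1), with 1 coefficient per group, eBayes set to trend and robust, and Benjamini-Hochberg adjustment over all transcripts that reached 1 in 2 or more of the fitted libraries. All 150 transcripts passed this filter in every main fit. The 7 contrasts were 4 between times, 2 between tissues and 1 interaction. The script was tested on simulated data. Alternatives were 3 scalings, a pseudocount of 0.1, no filter, a filter at 5, spread from the compared groups, a replicate block and each library left out. Spread from the compared groups left 142 of the 150 tested for leaf under PEG, and the filter at 5 left 122 in the root fits.

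The members and the tests were chosen with earlier results of these data known. Transcripts were described by rank: 1 to 10, both sides of the list's end, the extremes of leaf control level and of the difference between the falls, and the largest called rise and fall without overlap in each contrast. Identifiers are printed for the first 2 ranks and for the 2 largest rises between times. The labels call the replicates biological, and the p-values rest on the spread among these libraries alone. Read depth is unknown.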

Additional observations from a re-analysis of the deposited data

Results flagged for a closer look

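The difference between the 96 h and 24 h controls was itself different between leaf and root for 45 of the 150 transcripts, by the limma interaction at adjusted p under 0.05. This is 30% of the 150, near the 26.6% called among all 41303 transcripts tested. The leaf change was the lower for 35 of them and the higher for 10. With totals set equal without the dominant component these were 19 and 23, where 8820 of all 43460 transcripts were lower and 4087 higher. TRINITY_DN41607_c0_g1 had a difference of −3.65 and rank 14 one of 3.23 on the log2 scale. The root 24 h controls of both transcripts were far apart, at 3.19 and 0.758 for TRINITY_DN41607_c0_g1 and at 37.1 and 17.9 for rank 14, and replicate 2 of that group is a dominated library. Whether this library had a part in the differences was not tested.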

How the results depend on the processing

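The leaf falls kept their direction under every scaling. For the scalings, the pseudocount of 0.1 and each library left out, the rule had fixed the direction of these falls in advance. Their median at 24 h was −1.86, and −1.64 with totals set equal without the dominant component, −1.66 with totals set equal and the component kept, −2.04 with a pseudocount of 0.1 and −1.94 to −1.80 with single libraries left out. At 96 h it was −2.68, and −2.26 with median-ratio size factors, −3.25, −4.70 and −3.04 under the other settings in that order, and −2.75 to −2.61 with single libraries left out. The root median at 24 h was −0.20, reversed at 0.99 with totals set equal and the component kept, and −0.43 to 0.039 with single libraries left out. At 96 h it was −0.03, −0.066 with median-ratio size factors, 0.099 with totals set equal without the component, 0.10 with it kept and −0.051 to −0.043 with single libraries left out. All 150 met the leaf criterion with any single library left out, as the criterion's construction requires.

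Of the counts of calls, spread from the compared groups alone gave 120 for the leaf controls between times and 73 of 142 tested for leaf under PEG. It gave 27 for the root controls and 76 for root under PEG. Totals set equal with the component kept gave 17 for the root controls, 3 for root under PEG, 71 for leaf against root at 96 h and 9 for the interaction. Without the 3 dominated libraries, an alternative added after seeing the data, root under PEG gave 87 and the interaction 74; leaf under PEG could not be fitted. With single libraries left out, the lone library of a group being assumed to vary like the others, the ranges were 33 to 108 for the leaf controls, 92 to 129 for leaf under PEG, 6 to 91 for the root controls, 8 to 87 for root under PEG, 113 to 128 and 97 to 124 for leaf against root at 24 h and 96 h, and 18 to 79 for the interaction. For rank 13 between the PEG times in leaf, totals set equal with the component kept gave −0.052. The cause of these moves was not tested.

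Replicate numbers showed no pairing by 1 measure: of 28 correlations of replicate differences between groups, 0 were over 0.1, the highest being 0.07. This measure cannot show whether replicates of the same number shared plants or batches. The fit with a replicate block made 67 and 108 calls for leaf controls and leaf under PEG, 39 and 42 for root, 122 and 114 for the tissues and 44 for the interaction, against 75, 114, 46, 49, 122, 114 and 45 without it. Of 283 values of 14 extreme contrasts under alternatives, 267 kept direction and call, 15 lost the call and 1 turned. Depth is unknown, so no detection limit can be given.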
